A study of Mus musculus with 10 samples.

Results

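Genes of the major histocompatibility complex (MHC) class II pathway of antigen presentation were examined in macrophages of the mouse small intestine 24 h after surgery. The 9 members were chosen by gene name: H2-Aa, H2-Ab1 and H2-Eb1, which encode chains of the class II molecules, Cd74, H2-DMa, H2-DMb1, H2-DMb2, Ciita and Cd86. All 9 were among the 17279 genes of the deposited table, and all 9 were among the 16949 genes that passed the filter on low counts and were tested. The libraries came from lamina propria cells that were positive for green fluorescent protein (GFP) under CX3CR1, the receptor for fractalkine, and that were collected from the mucosal layer of the whole small intestine by cell sorting. The labels give the genotype as C57BL6/J for both groups and do not describe the allele that carries GFP. The sham group (n = 5 libraries) had the control operation and the pMCAO group (n = 5 libraries) had permanent middle cerebral artery occlusion, a model of ischaemic stroke. The titles call the libraries biological replicates, but replicate 1 of each group has the word pool in its library name, so more than 1 animal may lie behind it.

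Class II molecules are pairs of an alpha and a beta chain that present peptides from endocytosed proteins to CD4+ T cells. H2-Aa and H2-Ab1 encode the alpha and the beta chain of I-A, and H2-Eb1 encodes the beta chain of I-E, whose alpha chain is not made in mice of the C57BL/6 background. The invariant chain, encoded by Cd74, occupies the peptide groove until proteases in the endosome degrade it. H2-M, a dimer of H2-DMa with one of the beta chains H2-DMb1 and H2-DMb2, then exchanges the remaining fragment for other peptides. CIITA, encoded by Ciita, is the master regulator of class II transcription. It binds no DNA itself but docks on factors that occupy the X and Y boxes of these promoters. CD86 is a costimulatory ligand of CD28 on T cells. Resident macrophages of the intestinal lamina propria are known for high surface levels of class II molecules.

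Letters of the X and Y boxes, the elements through which CIITA is known to act, were searched for, and the 4 members are shown whose promoter held a Y box shortly after an X box core or, in H2-Aa, after a palindrome. RefSeq promoters (assembly GRCm38.p6, 250 bases before to 50 bases after the start of transcription) matched 5 members with 6 entries. H2-Ab1, Cd74, Ciita and Cd86 had no entry, so their promoters were not searched. Capitals mark an X box core, read here as AAC and then, after any 2 bases, ATGATG, or in H2-Aa, which held no X box core, the palindrome TGACGTCA, known as a cAMP response element, and then the Y box GATTGG. The stretches lie on chromosome 17 of GRCm38 at chr17:34145116-34145175 (H2-DMb2, plus strand), chr17:34153087-34153146 (H2-DMb1, plus strand), chr17:34305766-34305824 (H2-Eb1, plus strand) and chr17:34287855-34287909 (H2-Aa, minus strand), and each is printed 5′ to 3′ in the direction of the gene.
H2-DMb2: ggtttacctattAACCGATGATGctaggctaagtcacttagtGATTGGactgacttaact
H2-DMb1: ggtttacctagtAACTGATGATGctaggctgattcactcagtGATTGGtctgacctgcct
H2-Eb1: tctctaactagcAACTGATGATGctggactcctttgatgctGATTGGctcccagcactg
H2-Aa: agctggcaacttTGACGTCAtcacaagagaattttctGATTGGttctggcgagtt

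The X box core in these exact letters was present in 3 of these promoters. An X box with other letters was not searched for, so H2-Aa is not shown to lack one. All 4 hold a Y box because they were chosen for it. The motif and the Y box were separated by 19 bases in H2-DMb2 and H2-DMb1, by 18 bases in H2-Eb1 and by 17 bases in H2-Aa. The Y box started 91 bases before the RefSeq start in H2-DMb2, 62 in H2-DMb1, 60 in H2-Eb1 and 49 in H2-Aa. The promoter of H2-DMa held a Y box 199 bases before the RefSeq start and neither of the other motifs. In GENCODE M21 the genes H2-DMb2, H2-DMb1 and H2-DMa start further upstream, at 34143307, 34153072 and 34119541. The motifs found in these genes thus lie inside the genes as annotated there. Searched on both strands of 32851 promoters of the same length, the X box core was found in 45 (0.137%), the palindrome in 588 (1.79%) and the Y box in 5292 (16.1%). An X box core followed within 60 bases by a Y box on the same strand was found in 4 promoters (0.0122%), those of H2-DMb2, H2-DMb1, H2-Eb1 and H2-Ob. The motifs were chosen after these promoters had been read, so the shares are a description, and a match is not shown to be a bound site.

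Before the members are compared, the libraries that stood apart have to be named. Total counts ranged from 18894151 to 60665972 in the sham group and from 6430643 to 28672285 in the pMCAO group, and the share of immunoglobulin genes lay between 0.586% and 19.17%. Counts of Xist, the RNA that coats a silenced X chromosome and marks female cells, came to 1760 CPM (counts scaled to a common library size) or more in sham replicate 5 and pMCAO replicate 4 and at 4.92 CPM or less in the other libraries. All 14 macrophage markers, among them Lyz2, C1qb, Mrc1, Csf1r and Cx3cr1 itself, had counts in every library, and their summed level was from 8620 to 19000 CPM in sham libraries and from 9540 to 19600 CPM in pMCAO libraries. Markers of other cells were also present. The summed level of 8 plasma cell genes, including immunoglobulin genes, ranged from 5530 to 170000 CPM over all libraries, and that of 10 B cell genes from 89.6 to 562 CPM. The sum was between 32.8 and 374 CPM for T cell markers, between 378 and 1010 CPM for dendritic cell markers and between 614 and 2290 CPM for monocyte markers. For epithelial markers it was between 125 and 1160 CPM, and for markers of group 3 innate lymphoid cells between 2.63 and 16.8 CPM.

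The class II pathway was strongly expressed in both groups. Together the 9 members took from 1.32% to 2.23% of all counts of a library. Levels of different genes were compared only per length, as CPM scaled by TMM (trimmed mean of M values) and divided by kilobases of exon. This length counts every annotated exon base of a gene and can exceed that of a single transcript. For H2-Aa it was 3798 bases, against 1128 in the transcript used for shared windows below. For H2-Eb1 it was 1944 against 1669 bases. In the sham group (n = 5) Cd74 had the highest level, 3490 ± 971 CPM per kb (SD), and ranked 21 among all genes with a known length. H2-Ab1 followed with 1820 ± 685, H2-Eb1 with 1250 ± 383 and H2-Aa with 1180 ± 435 CPM per kb. The H2-M chains were about an order of magnitude lower, H2-DMb1 with 141 ± 31.0 and H2-DMa with 92.8 ± 22.9 CPM per kb. Cd86 was at 33.9 ± 15.1, Ciita at 30.4 ± 3.11 and H2-DMb2 at 21.1 ± 6.52 CPM per kb.

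Of the neighbours in this order, H2-Aa and H2-DMb1 did not overlap in either group, nor did H2-DMa and Cd86. Cd74 and H2-Ab1 overlapped between sham libraries, although Cd74 was the higher in all 5 libraries of each group. H2-Eb1 and H2-Aa were not separated on exon length: H2-Eb1 was the higher in 4 of 5 sham libraries and in 1 of 5 pMCAO libraries. H2-Ab1 had 2568 bases of exon against 1212 in the transcript used for shared windows. With those transcripts H2-Aa would lie above H2-Eb1 and above H2-Ab1 in the means of both groups. H2-Ab1 overlapped with H2-Eb1 and H2-DMb1 with H2-DMa, in the same order within every library. Cd86 overlapped with Ciita, and Ciita with H2-DMb2. These orders hold for exon length only and may change with transcript length, also between genes that are not neighbours.

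**Figure D1:**
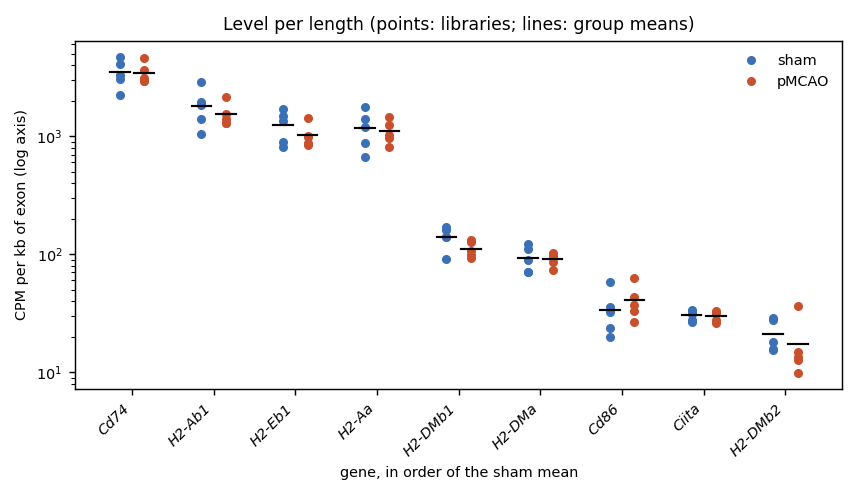
Level per length of the 9 members, in CPM per kb of exon on a log axis; points are libraries and lines are group means, in blue for sham and in red for pMCAO. Cd74 and the 3 class II chains lie well above the H2-M chains, and Cd86, Ciita and H2-DMb2 form the lowest step, in both groups.

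The first question was whether transcripts of the pathway differed between pMCAO and sham mice. None of the 9 members passed an adjusted p of 0.05 in edgeR's quasi-likelihood test, against 0 of all 16949 genes tested (0.0%). At an unadjusted p under 0.05 there were 0 of 9 members, against 799 genes (4.71%). The groups did not overlap in 0 of 9 members, against 167 genes (0.985%). The fitted log2 fold change, pMCAO against sham, was below 0 in 8 of 9 members, with a median of -0.10, whereas 8581 of all genes (50.6%) lay below 0, with a median of -0.0059. H2-Aa, H2-Ab1, H2-Eb1 and Cd74 were correlated across libraries, as described below, so their 4 signs are not separate observations. Since the libraries are bulk samples of sorted cells, fewer cells that carry a transcript and less of that transcript per cell cannot be told apart.

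**Figure D2:**
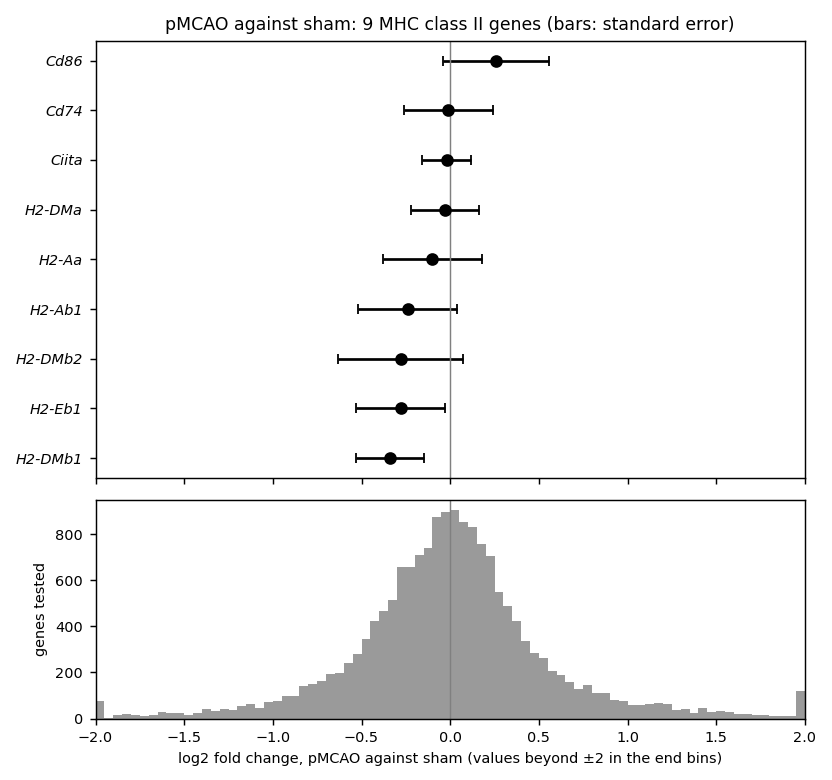
Fitted log2 fold change of the 9 members (upper panel, points with standard errors) above the distribution of all 16949 genes tested (lower panel, number of genes per bin). The members lie between -0.34 (H2-DMb1) and 0.26 (Cd86). The quartiles of the distribution are -0.29 and 0.26, so H2-DMb1 lies below the lower quartile and Cd86 at the upper one, with the other members between them.

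The chains of the class II molecules came first. H2-Aa (chromosome 17, 34282744 to 34287823, minus strand, GRCm38) was measured at 5300, 3300, 4520, 6750 and 2550 CPM in sham replicates 1 to 5 and at 4690, 3090, 5570, 3920 and 3650 CPM in pMCAO replicates 1 to 5. All 5 pMCAO libraries lay inside the sham range. The means were 4480 ± 1650 and 4180 ± 965 CPM (SD, n = 5 each), and the log2 fold change was -0.10 (SE 0.28, adjusted p = 0.977, edgeR).

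H2-Ab1 (chromosome 17, 34257689 to 34269419, plus strand) followed H2-Aa library by library. It was at 4980, 3620, 4740, 7370 and 2690 CPM in the sham libraries and at 3980, 3580, 5560, 3330 and 3330 CPM in the pMCAO libraries. Again every pMCAO value fell within the sham range, and 4 of 5 lay below the sham mean of 4680 ± 1760 CPM. The log2 fold change was -0.24 (SE 0.28, adjusted p = 0.943).

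For H2-Eb1 (chromosome 17, 34305867 to 34316674, plus strand), the beta chain whose partner this background does not make, transcripts were abundant all the same. It reached 2880, 1750, 2610, 3330 and 1590 CPM in the sham libraries and 1930, 1650, 2790, 1950 and 1700 CPM in the pMCAO libraries. Here too 4 of 5 pMCAO libraries were under the sham mean of 2430 ± 745 CPM, with full overlap of the groups, and the log2 fold change was -0.28 (SE 0.25, adjusted p = 0.925).

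Cd74 (chromosome 18), the invariant chain, had nearly equal group means, 5860 ± 1630 CPM in sham and 5820 ± 1230 CPM in pMCAO libraries. Its sham values were 5520, 5170, 6920, 7960 and 3740 CPM and its pMCAO values 6170, 4930, 7810, 4930 and 5250 CPM. Sham replicate 4 and pMCAO replicate 3 were the highest libraries of their groups for Cd74, as they were for H2-Aa and H2-Ab1, and sham replicate 5 was the lowest of all. The log2 fold change of Cd74 was -0.01 (SE 0.25, adjusted p = 0.999), and its sign changed with the scaling method, so no direction can be given.

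The genes of H2-M followed, none of which passed the test. H2-DMa (chromosome 17, 34119541 to 34139101, plus strand) was at 384, 306, 418, 246 and 246 CPM in the sham libraries and at 352, 341, 324, 254 and 295 CPM in the pMCAO libraries. The groups had like means, 320 ± 78.9 and 313 ± 39.3 CPM, and the log2 fold change was -0.03 (SE 0.19, adjusted p = 0.989). Sham replicate 4, the highest library for the I-A chains, was among the lowest for H2-DMa.

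H2-DMb1 (chromosome 17, 34153072 to 34160230, plus strand) had the lowest fold change and the smallest p among the members. It was at 271, 235, 288, 237 and 153 CPM in the sham libraries and at 178, 222, 215, 157 and 164 CPM in the pMCAO libraries. All 5 pMCAO libraries were below the sham mean of 237 ± 52.1 CPM, against a pMCAO mean of 187 ± 29.5 CPM, but sham replicate 5 was the lowest of all 10. The log2 fold change was -0.34 (SE 0.19, unadjusted p = 0.0948, adjusted p = 0.922). Without sham replicate 5 and pMCAO replicate 4, the libraries with Xist counts, it was -0.41 (unadjusted p = 0.0328, adjusted p = 0.999, edgeR). Without sham replicate 5 alone it was -0.47 (unadjusted p = 0.0139, adjusted p = 0.921, edgeR). With sample weights in limma-voom it was -0.46 (unadjusted p = 0.0119, adjusted p = 0.373). In that weighted fit 1888 of all 16949 genes had an unadjusted p under 0.05, against 799 in the main fit. Other fits gave weaker values: -0.26 without sham replicate 3 (unadjusted p = 0.218, edgeR) and -0.27 without both pooled libraries (unadjusted p = 0.268, edgeR). Over the 21 alternatives the log2 fold change of H2-DMb1 lay between -0.47 and -0.26. The call over all genes did not change in these fits.

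H2-DMb2 (chromosome 17, 34143307 to 34151555, plus strand), the less expressed beta chain, was at 48.4, 27.1, 27.7, 31.4 and 50.2 CPM in the sham libraries and at 22.3, 23.4, 17.2, 25.8 and 63.0 CPM in the pMCAO libraries. Thus 4 of 5 pMCAO libraries lay below the lowest sham library, and pMCAO replicate 5 lay above the highest. The log2 fold change was -0.28 (SE 0.35, adjusted p = 0.945). Without pMCAO replicate 5 it was -0.74 (unadjusted p = 0.0129, adjusted p = 0.938), without both pooled libraries -0.07 (adjusted p = 1.0) and without the libraries with Xist counts -0.10 (adjusted p = 0.999), so its size depended on which libraries were kept. H2-DMb1 and H2-DMb2 are near-identical over part of their length: 179 of 1305 windows of 100 bases in the H2-DMb1 transcript (13.7%) occur unchanged in H2-DMb2, which is 12.9% of the 1384 windows of the latter. A read that lies wholly within that stretch cannot be assigned to either gene, and the split of counts between them is uncertain to that extent. The other 7 members shared no such window with another gene.

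Ciita (chromosome 16, 10480059 to 10528418, plus strand) was the member that varied least. Its values were 255, 299, 320, 314 and 262 CPM in the sham libraries and 300, 305, 313, 248 and 265 CPM in the pMCAO libraries, a 1.29-fold range over all 10 libraries. By comparison, the range was 2.65-fold for H2-Aa, 2.74-fold for H2-Ab1, 2.10-fold for H2-Eb1 and 2.13-fold for Cd74. The means of Ciita were 290 ± 29.7 and 286 ± 28.1 CPM, and the log2 fold change was -0.02 (SE 0.14, adjusted p = 0.992), with a sign that depended on the scaling method.

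Cd86 (chromosome 16, 36603869 to 36666081, minus strand) was the single member with a fold change above 0. It was at 118, 86.4, 130, 214 and 73.2 CPM in the sham libraries and at 135, 96.8, 159, 232 and 121 CPM in the pMCAO libraries. The means were 124 ± 55.2 and 149 ± 51.8 CPM, 4 of 5 pMCAO libraries were above the sham mean, and the log2 fold change was 0.26 (SE 0.30, adjusted p = 0.943). The lowest library, sham replicate 5, and the highest, pMCAO replicate 4, were those with Xist counts. Without both, the log2 fold change of Cd86 was -0.10 (adjusted p = 0.999), so its direction rests on them.

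Ratios between members within a library do not depend on scaling, and 6 of them were compared by a two-sided exact permutation test over all assignments of 5 libraries to each group, whose smallest p is 0.00794. The ratio of H2-DMa to its beta chains H2-DMb1 plus H2-DMb2 differed most. In log2 units of counts it was 0.27, 0.22, 0.40, -0.13 and 0.28 in the sham libraries and 0.81, 0.48, 0.48, 0.47 and 0.38 in the pMCAO libraries. All 5 pMCAO libraries were above the sham mean, and 4 of 5 were above the highest sham library. The difference of the means, 0.52 ± 0.17 against 0.21 ± 0.20, was 0.32 (exact permutation p = 0.0159), which did not pass after Benjamini-Hochberg adjustment over the 6 ratios (adjusted p = 0.0952). Because the ratio is one of summed beta chain counts, it does not depend on how reads were split between H2-DMb1 and H2-DMb2.

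The other 5 ratios did not pass before adjustment either. The log2 ratio of H2-Aa to H2-Ab1, the chains of I-A, was -0.06 ± 0.09 in sham and 0.08 ± 0.19 in pMCAO libraries, a difference of 0.14 (exact permutation p = 0.167, adjusted p = 0.5). Cd74 relative to both I-A chains differed by 0.13 (adjusted p = 0.762) and H2-Eb1 relative to H2-Ab1 by -0.06 (adjusted p = 0.810). For Ciita relative to both I-A chains the difference was 0.10 (adjusted p = 0.819), and for H2-DMb2 relative to H2-DMb1 it was -0.07 (adjusted p = 0.873), all by the same exact permutation test. The ratio of H2-DMb2 to H2-DMb1 spread widely within the groups, from 0.0960 to 0.328 in sham and from 0.0803 to 0.385 in pMCAO libraries.

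The members were then compared with each other over the 10 libraries, on log2 CPM, with permutation p-values from 100000 resamples and Benjamini-Hochberg adjustment over the 36 pairs. Of these pairs 6 passed an adjusted p of 0.05, and they were the 6 pairs among H2-Aa, H2-Ab1, H2-Eb1 and Cd74. Pearson's r was between 0.819 and 0.941 and Spearman's rho between 0.830 and 0.939 in these pairs, and the largest adjusted permutation p was 0.0224 for r and 0.0286 for rho. Leaving out the 2 libraries farthest from the median of the first gene, r was between 0.757 and 0.893. The closest pair was H2-Ab1 with H2-Eb1 (r = 0.941), and the chains of I-A had r = 0.932.

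No pair of a remaining member with these 4 passed adjustment. The highest r was that of Cd86 with H2-Aa, 0.727 (rho = 0.721, adjusted permutation p = 0.0957 and 0.107). It was 0.428 without the 2 farthest libraries. H2-DMb1 had r = 0.665 with H2-Ab1 (rho = 0.745, adjusted permutation p = 0.145 and 0.0926), and r = 0.842 without the 2 farthest libraries. Ciita had r = 0.679 with Cd74 (rho = 0.648, adjusted permutation p = 0.141 and 0.169) and r = 0.347 with H2-Aa (rho = 0.370, adjusted permutation p = 0.503 and 0.529). H2-DMa had r = 0.191 with H2-Ab1 over all libraries (rho = 0.297, adjusted permutation p = 0.634 and 0.613). Without sham replicate 4 and pMCAO replicate 3, the highest for H2-Ab1, r was 0.921, so the weak relation of this pair rests on those libraries. The other 3 genes of the block gave less. With the 2 libraries farthest for the first gene of each pair left out, H2-DMa had r = 0.411 with H2-Aa, 0.547 with H2-Eb1 and 0.586 with Cd74. H2-DMa and H2-DMb1, partners in H2-M, had r = 0.649 (rho = 0.552, adjusted permutation p = 0.162 and 0.238). H2-DMb2 had an r below 0 with all 8 other members, the lowest with Ciita at -0.619 (rho = -0.321, adjusted permutation p = 0.162 and 0.613).

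**Figure D3:**
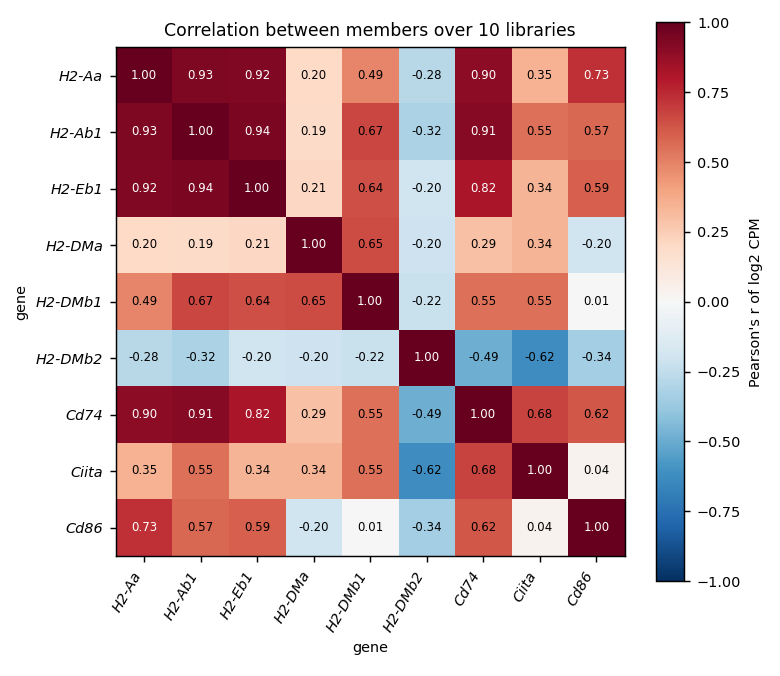
Pearson's r of log2 CPM over 10 libraries for every pair of members, from blue (negative) to red (positive). H2-Aa, H2-Ab1, H2-Eb1 and Cd74 form a block with r of at least 0.819, while the row of H2-DMb2 is negative throughout.

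The genes outside the members whose pattern was most like the mean log2 CPM of H2-Aa, H2-Ab1, H2-Eb1 and Cd74 were Unc93b1 (r = 0.953), which carries endosomal Toll-like receptors to their compartment, Fgd2 (0.953), Gm28417 (0.949), the cytokine gene Il18 (0.945) and the sorting nexin gene Snx6 (0.941). These r are the highest among 16949 genes tested over 10 libraries and are given as a description. The same search was added for other members after their values were seen. For H2-DMb2 it gave Knop1 (0.959) and the RNA helicase gene Ddx39 (0.935), and for H2-DMb1 Tmem107 (0.964) and Tmbim6 (0.924). For Cd86 it gave Tm6sf1 (0.986), Fcho2 (0.985) and Maf (0.976), the last a transcription factor of macrophages.

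The summed levels of the 8 marker lists were then set beside the members across libraries. B cells also express class II molecules and H2-O, so their markers were set beside the class II mean. The mean of the 4 correlated members had r = -0.788 with the summed B cell markers (adjusted permutation p = 0.0492 over 8 marker lists; rho = -0.794, adjusted p = 0.0668 by permutation). With T cell markers r was -0.756 (adjusted permutation p = 0.0492) and rho was -0.673 (adjusted permutation p = 0.0949). These were the only lists of the 8 that passed by r, and 0 passed by rho. Both relations weakened without the 2 farthest libraries, to r = -0.540 (exact permutation p = 0.172) for B cells and to r = -0.417 (exact permutation p = 0.302) for T cells, so they rest on those libraries. The sum of the macrophage markers had r = 0.658 with the class II mean (rho = 0.636, adjusted permutation p = 0.0842 and 0.0949) and that of the dendritic cell markers r = -0.694 (rho = -0.624, adjusted permutation p = 0.0771 and 0.0949). The part of cell composition in the comparison of the groups was not tested.

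For single members, 72 relations with marker lists were added after the values were seen, and 0 of them passed after adjustment. H2-DMb2 was highest in pMCAO replicate 5 and sham replicate 5, which had the highest B cell sums, 562 and 517 CPM, and had r = 0.640 with that sum (adjusted permutation p = 0.151 for r and 0.280 for rho). Its highest r was with the markers of group 3 innate lymphoid cells (r = 0.847, adjusted permutation p = 0.0821 for r and 0.190 for rho), whose summed level was at most 16.8 CPM, and r was 0.590 with T cell and 0.576 with dendritic cell markers. Sham replicate 2 had a like B cell sum, 515 CPM, but H2-DMb2 at 27.1 CPM. Sham replicate 1 had a lower B cell sum, 263 CPM, but H2-DMb2 at 48.4 CPM. Cd86 had r = -0.819 with the B cell sum (adjusted permutation p = 0.0821 for r and 0.135 for rho), and its r was -0.814 with T cell, -0.802 with dendritic cell and -0.785 with plasma cell markers. Whether the relations of H2-DMb2 and Cd86 differ was not tested. Over the marker lists themselves, 0 of all markers passed the test between pMCAO and sham. The B cell list had 8 of 10 genes below 0 and a median log2 fold change of -0.49, and the T cell list had 7 of 7 below 0. Whether genes of a list vary together was not tested, so these signs are not taken as separate observations. The T cell sum was highest in sham replicate 5 (374 CPM), and sham replicate 4 (33.0 CPM) was close to the lowest pMCAO library (32.8 CPM). Of the B cell genes, Cd79a, Ms4a1, Pax5 and Blk had 0 counts in pMCAO replicate 3 and Ebf1 in sham replicate 4. The other B cell genes had counts in pMCAO replicate 3, from 0.101 CPM to 54.1 CPM, the latter for Cd79b. Plac8, a gene of monocytes, was the single marker under 0.05 before adjustment (log2 fold change -1.08, SE 0.41, unadjusted p = 0.0227 and adjusted p = 0.922 in edgeR).

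**Figure D4:**
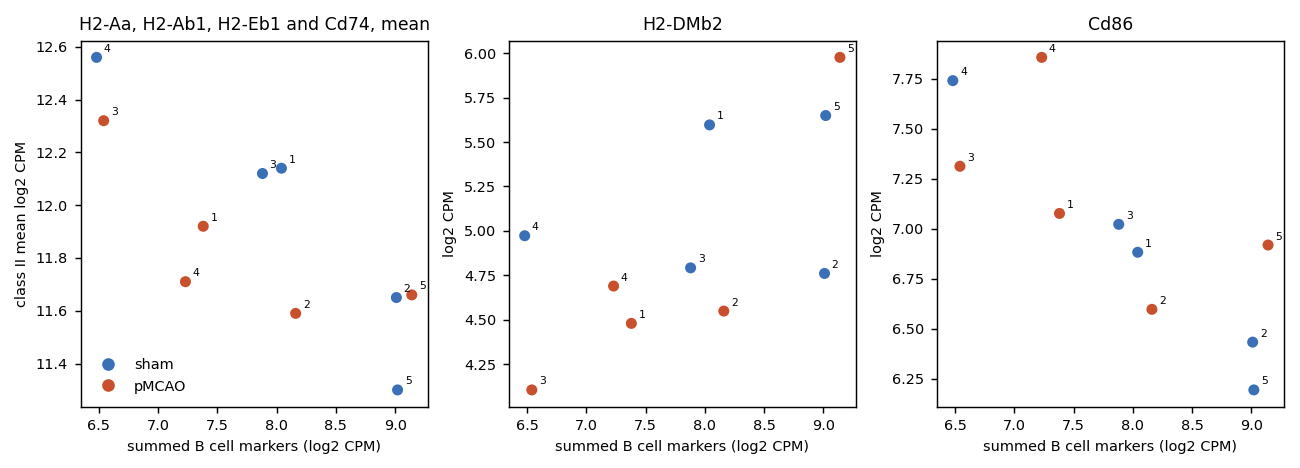
Mean log2 CPM of H2-Aa, H2-Ab1, H2-Eb1 and Cd74 (left), log2 CPM of H2-DMb2 (middle) and log2 CPM of Cd86 (right) against the log2 of the summed CPM of 10 B cell markers; each point is a library with its replicate number, sham in blue and pMCAO in red. The class II mean has r = -0.788 and Cd86 r = -0.819 with the B cell sum, the latter not past adjustment, and H2-DMb2 is highest in replicate 5 of both groups.

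The other genes of the pathway were described with 6 lists. Of 43 symbols, 36 were in the table and all 36 were tested; 0 passed an adjusted p of 0.05 in edgeR's test, 0 had an unadjusted p under 0.05, against 4.71% of all genes, and 17 had a log2 fold change below 0.

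Among the other genes of the class II region, H2-Oa and H2-Ob encode H2-O, the inhibitor of H2-M that is typical of B cells. H2-Ob was at 56.2 ± 22.9 CPM in the sham and 57.2 ± 31.6 CPM in the pMCAO libraries (log2 fold change 0.03, SE 0.35), and H2-Oa at 12.8 ± 6.27 and 14.5 ± 11.7 CPM (0.19, SE 0.48). Both were highest in pMCAO replicate 5 (111 CPM for H2-Ob and 34.7 CPM for H2-Oa) and next highest in sham replicate 5 (93.1 and 23.2 CPM), the same libraries that were highest for H2-DMb2. Sham replicate 1, close to sham replicate 5 for H2-DMb2 (48.4 against 50.2 CPM), had H2-Ob at 54.1 and H2-Oa at 11.3 CPM. H2-Eb2 had a log2 fold change of 0.37 (SE 0.53).

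The factors that bind the X and Y boxes and recruit CIITA numbered 7, of which 6 lay below 0 with a median log2 fold change of -0.12. Creb1 was at 123 ± 11.2 CPM in the sham and 139 ± 25.6 CPM in the pMCAO libraries, and the NF-Y subunit genes Nfya and Nfyb had log2 fold changes of -0.05 (SE 0.16) and -0.20 (SE 0.19). In the route from interferon-gamma to Ciita, 5 of 8 genes lay below 0. Ifngr1, a chain of the receptor, was at 286 ± 29.0 CPM in the sham and 327 ± 27.3 CPM in the pMCAO libraries (log2 fold change 0.19, SE 0.14). The kinase gene Jak1 had a log2 fold change of -0.07 (SE 0.15) and Irf8, a transcription factor of myeloid cells, one of 0.06 (SE 0.19).

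Of the 7 genes for proteolysis of antigen and invariant chain, 2 lay below 0. Ctss, which encodes cathepsin S, the protease that removes the invariant chain in many antigen-presenting cells, was at 1910 ± 543 CPM in the sham and 1980 ± 315 CPM in the pMCAO libraries (log2 fold change 0.05, SE 0.24). Ctsb had a log2 fold change of 0.15 (SE 0.28) and Lgmn, the asparaginyl endopeptidase, one of 0.08 (SE 0.33). For class II turnover, March1, the ubiquitin ligase that removes class II molecules and CD86 from the surface, was at 260 ± 61.4 CPM in the sham and 336 ± 89.9 CPM in the pMCAO libraries (log2 fold change 0.37, SE 0.22). Cd83, which opposes it, ranged from 72.8 to 823 CPM, with its highest value in sham replicate 4 (log2 fold change -0.67, SE 0.56). Sppl2a, whose protease clears the last membrane fragment of the invariant chain, had a log2 fold change of 0.17 (SE 0.19).

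Among the genes of costimulation and its inhibition, 3 of 7 lay below 0. Cd80, the other ligand of CD28, was at 30.9 ± 12.7 CPM in the sham and 40.6 ± 8.28 CPM in the pMCAO group (log2 fold change 0.39, SE 0.28). Icosl, the ligand of ICOS, was at 93.6 ± 11.3 and 119 ± 27.0 CPM (log2 fold change 0.34, SE 0.18). Cd274, which encodes the inhibitory ligand PD-L1, had a log2 fold change of -0.31 (SE 0.26). The symbols H2-Ea-ps, H2-Ea, Vsir, Tnfsf4 and Cd70 were not analysed here.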

How the data were processed

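The series holds 10 RNA sequencing libraries, 5 per group, made with a ribosomal RNA depletion kit. The submitters' processing notes name STAR, featureCounts, limma and GRCm38 (mm10). Per gene, the authors deposited raw counts and, beside them, CPM values obtained by dividing by the library's total. Every listed gene had at least 10 counts in at least 2 libraries. The deposited table also holds log2 values and p-values of the authors' own comparison, which were not used. Strandedness of counting is not given in the sources used here.

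From the counts, genes were filtered with filterByExpr, scaled by TMM and compared in edgeR 4.0.16 (R 4.3.3) by its quasi-likelihood test, without covariates and with Benjamini-Hochberg adjustment over all 16949 genes. The p-values weigh the difference of the groups against the spread between these libraries. This need not be the spread between single mice, since replicate 1 of each group may be a pool. Correlations used log2 CPM with a prior count of 2, and ratios added 0.5 to each count. Exon lengths and gene positions came from GENCODE M21. The tests were checked on simulated data. Libraries of a group all differed beyond counting error, the smallest ratio of chi-square to degrees of freedom being 39.2.

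Alternatives were DESeq2 1.42.0, limma-voom (limma 3.58.1) with and without sample weights, other scalings and filters, leaving out immunoglobulin genes, the replicate number as a block, and leaving out single libraries, both pooled libraries or both libraries with Xist counts. The members and lists were chosen with earlier results of these data known. All members are named, and of each other list the genes with an unadjusted p under 0.05 or otherwise at most 3 with the highest mean log2 CPM. Csf1r, Cx3cr1, the B cell genes at 0 counts and the genes most like H2-DMb1, H2-DMb2 and Cd86 were named outside this rule, after their values were seen.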

Additional observations from a re-analysis of the deposited data

Results flagged for a closer look

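The log2 ratio of H2-DMa to H2-DMb1 plus H2-DMb2 was far from the others of its group in pMCAO replicate 1, where it was 0.81 against 0.48 in the nearest library. This gap was 0.769 of the range of the 5 pMCAO libraries, above Dixon's critical value of 0.71. It was the single such case in 46 groups of 5 libraries, where chance gives 2.3. Replicate 1 is a library whose name holds the word pool, and it had the fewest counts of all libraries (6430643).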

How the results depend on the processing

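None of the 9 members was called under any of the 21 alternatives, and their median log2 fold change stayed between -0.19 and -0.03. Over all genes, DESeq2 called 3 (1011 at an unadjusted p under 0.05) where edgeR called 0 (799). H2-Ab1, H2-Eb1, H2-DMb1 and H2-DMb2 stayed below 0 in all 21 alternatives. Cd74 changed sign in 12: 0.01 with DESeq2, upper-quartile scaling, DESeq2 size factors and weighted limma-voom, 0.0041 with limma-voom, 0.00031 with the CPM filter, 0.02 with the replicate block, and from -0.15 to 0.11 when single libraries were left out. Ciita changed sign in 7: 0.00087 with DESeq2, 0.0031 with upper-quartile scaling, 0.00094 with DESeq2 size factors, and from -0.06 to 0.02 without single libraries. Leaving out single libraries moved H2-Aa from -0.25 to 0.08 (above 0 without sham replicate 4), H2-DMa from -0.12 to 0.08 (above 0 without sham replicate 1, sham replicate 3 or pMCAO replicate 4) and Cd86 from 0.04 to 0.54. Cd86 was at -0.10 without the libraries with Xist counts. The cause was not tested.

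The H2-DMa to H2-DMb ratio difference was between 0.23 and 0.36 without single libraries, and passed after adjustment (0.36, adjusted exact permutation p = 0.0476) without sham replicate 3 but in none of its other 13 alternatives. The ratio of H2-DMb2 to H2-DMb1 ranged from -0.42 to 0.20 without single libraries, and was 0.04 without the pooled libraries and 0.16 without those with Xist counts. Ciita relative to the I-A chains ranged from -0.05 to 0.24.

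The replicate numbers were not shown to pair the libraries: same-numbered libraries had correlations of deviations from -0.0055 to 0.372 (mean 0.197), and 2 of 5 sham libraries correlated best with their own number. With the replicate block 0 genes were called (1303 at an unadjusted p under 0.05), no call of a member changed, and the H2-DMa to H2-DMb ratio had an exact permutation p of 0.0625, the smallest this block allows. Depth limits H2-DMb2 most, with 152 counts in its lowest library.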
